A study of Ascaris suum with 10 samples.

Results

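A set of 80 genes of the pig roundworm Ascaris suum was expressed in all 4 adult somatic libraries, within a 5-fold range, and stood lower in both gonads. They were chosen from the 15446 genes of the deposited table, of which they are 0.518%. The first criterion was that the lowest value among intestine, muscle, male carcass and female carcass, plus 1, be at least 4 times the higher of testis and ovary, plus 1. The second was that the highest of the 4 somatic values be under 5 times the lowest. The values of these 6 columns chose the genes, so their levels there are a description only. Embryo and larva took no part in the choice.

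Ascaris suum lives as an adult in the intestine of the pig. Its own gut is a tube of epithelial cells that takes up nutrients, and its body wall consists of muscle under a hypodermis that secretes the cuticle. The gonads are long tubes filled with germ cells at successive steps of development. This species discards part of its germline DNA from somatic cells during the first cleavages, so gonad and soma differ in DNA as well as in expression. Germline genes silenced by that loss were the subject of the study, and the genes described here have the opposite pattern of expression.

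The study sequenced polyadenylated RNA of 10 libraries, all from worms labelled as a North American wild population. Adult libraries were intestine, muscle (with hypodermis), male carcass and female carcass (each holding muscle, hypodermis, pharynx and neurons), and the germinal zones of testis and of ovary. Developmental libraries were second-stage larvae of day 7 and embryos taken at 24 hr (1 cell), 46 hr (1 to 2 cells) and 64 hr (2 to 4 cells), which share 1 embryo column in the table. Neither the age of the worms nor the number of animals behind each library is given in the labels. Values are RPKM, read numbers scaled by gene length and by library size. Each tissue has 1 library, so there is no replicate error and no test, and every difference compares these libraries only. Muscle and hypodermis are in 3 of the 4 somatic libraries, so the 4 columns amount to gut and body wall rather than to 4 separate tissues. In bulk tissue of this kind, fewer cells of a type and less RNA per cell cannot be told apart. The table pairs its identifiers with no gene names, so neither the functions of the 80 genes nor the defining markers of the labelled tissues could be looked at. Column sums lay between 564412 RPKM (larva) and 821149 RPKM (female carcass), and the depth in reads is unknown.

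**Figure D1:**
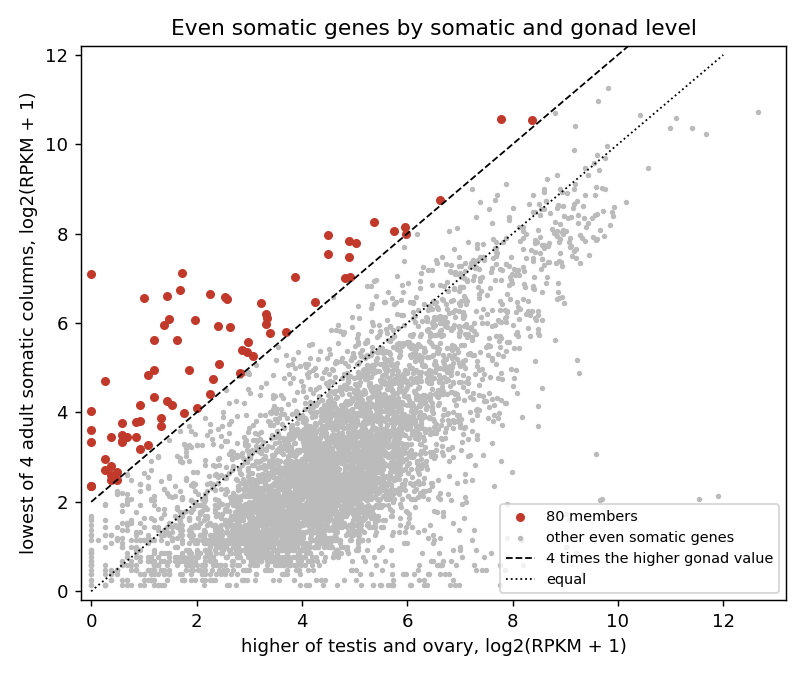
Each point is a gene whose highest adult somatic value is under 5 times its lowest, placed by the higher of its testis and ovary values (x axis) and by its lowest somatic value (y axis), both as log2(RPKM + 1). The 80 members (red) lie on or above the dashed line at 4 times the higher gonad value, at the thin upper edge of the cloud of other even genes (grey), most of which lie below the dotted line of equality.

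The members covered a wide range of adult levels. Their lowest somatic value ran from 4.1 to 1511.5 RPKM, with a median of 38.6 and quartiles of 12.4 and 95.4. By column the median was 61.3 RPKM in intestine, 48.4 in muscle, 64.2 in male and 78.6 in female carcass, against 0.9 in testis and 2.0 in ovary. These 80 genes took 1.88% of the summed RPKM of intestine, 2.10% of muscle, 1.82% of male carcass and 1.81% of female carcass, against 0.0987% of testis and 0.185% of ovary. The rule limits the range over the somatic columns and bounds the gonads, so these like shares in gut and body wall are a description only. In their lowest somatic column 16 members stood under 10 RPKM and 18 stood at 100 RPKM or more.

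The most abundant members were ASG15008 and ASG05221. ASG15008 stood at 1511.5 RPKM in intestine, 1797.2 in muscle, 2457.5 in male and 3789.1 in female carcass, against 217.7 in testis and 108.7 in ovary. ASG05221 stood at 3233.2 RPKM in intestine, 3706 in muscle, 1495.5 in male and 1600.9 in female carcass, against 258.3 in testis and 327.6 in ovary. The first was highest in female carcass and the second in muscle, and both remained well expressed in the gonads in absolute terms. Together this pair held 36.2% of the members' summed RPKM in intestine and 59.9% in testis. Without them the members' share was 1.20% of the intestine column, 1.31% of muscle, 1.32% of male carcass and 1.16% of female carcass, against 0.0396% of testis and 0.112% of ovary. At the lower end, ASG02050 stood at 5.2 RPKM in intestine, 7.6 in muscle, 4.1 in male and 5.5 in female carcass, and ASG14431 at 6, 4.1, 7.9 and 5.2 RPKM in the same columns. Both were listed at 0 in testis and ovary, and values this small are the least certain of the set.

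The gap between soma and gonad was mostly moderate. The ratio of the lowest somatic to the higher gonad value, each plus 1, had a median of 6.84 and quartiles of 5.06 and 10.4. It was 8 or more for 30 members and 20 or more for 10. The widest gap was that of ASG02187, at 457.4 RPKM in intestine, 135.9 in muscle, 240.9 in male and 169.1 in female carcass and listed at 0 in both gonads (ratio 137). Next came ASG09682, at 158.9 RPKM in intestine, 92.9 in muscle, 159.6 in male and 139.9 in female carcass, against 0.8 in testis and 1 in ovary (ratio 46.9). These 2 genes were also low in the developmental columns, at 2.3 RPKM in larva and 6.1 in embryo for ASG02187 and at 0.5 and 0.8 RPKM for ASG09682.

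Low did not mean absent in the gonads. Only 6 members were listed at 0 in both gonads, and 25 stood under 1 RPKM in both, while 29 reached 5 RPKM in the higher gonad. Of all 15446 genes, 760 were listed at 0 in both, 2623 stood under 1 RPKM in both and 9989 reached 5 RPKM in the higher gonad. The rule bounds both gonad values of the members, so nothing is read from these counts or from the comparison of testis with ovary below. Members with more RNA in soma also had more in the gonads, with Spearman's rho of 0.83 across the 80 genes between the lowest somatic and the higher gonad value. The rule sets an upper bound on the gonad value that grows with the somatic one, so part of this relation is built in. Testis exceeded ovary for 13 members (16.3%), against 23.5% of all genes, and was lower than ovary for 61 (76.3%), against 70.8%, with 6 equal. The median log2(RPKM + 1) difference of testis minus ovary was -0.39 in the members and -0.83 over all genes.

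The thresholds cut through a continuous distribution. Just inside the gonad threshold were ASG04682 (lowest somatic 4.6 RPKM, higher gonad 0.4, ratio 4.00) and ASG01340 (252.5 and 61.6 RPKM, ratio 4.05). Just outside it were ASG06264 (95.4 and 23.2 RPKM, ratio 3.98) and ASG10025 (27.1 and 6.1 RPKM, ratio 3.96). For evenness, ASG06783 had a highest over lowest somatic ratio of 4.87 and ASG06487 one of 4.86, whereas ASG12916 at 5.04 and ASG10307 at 5.19 were left out. Without the evenness limit 198 genes were low in both gonads, and of the 118 that it removed 81 were highest in intestine and 69 lowest in muscle. No share of all genes stands beside these tissue counts. The number of genes that met the rule moved most with 3 libraries. It was 733 without the intestine column in the rule, 265 with testis alone as gonad and 196 without the muscle column. With ovary alone as gonad it was 99, without male carcass 101 and without female carcass 102.

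**Figure D2:**
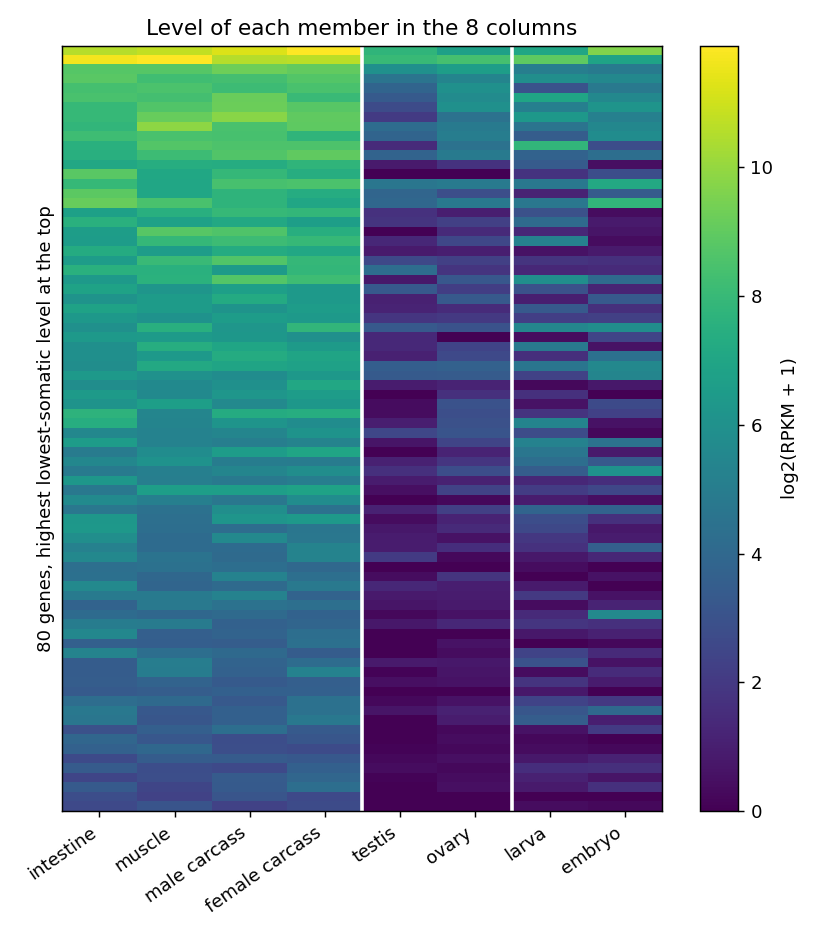
Each row is one of the 80 genes, ordered by its lowest somatic value, and each column is a library (embryo stands for 3), coloured by log2(RPKM + 1). In every row the 4 somatic columns are brighter than testis and ovary, as the rule requires, and larva and embryo are dark for most rows with single bright cells, such as the 229 RPKM of ASG02781 in larva.

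Most of these genes were also low in larva and embryo. The median level was 3.45 RPKM in larva and 2.05 RPKM in embryo, against a median lowest somatic value of 38.6 RPKM. Expressed gene by gene, larva stood at a median of 11.4% of the lowest somatic value (quartiles 4.14% and 32.2%) and embryo at 9.53% (quartiles 2.19% and 22.7%). The members took 0.314% of the summed RPKM of larva and 0.360% of embryo, against 1.81% to 2.10% of the 4 somatic columns. Low levels were thus found in embryo and larva as well as in the gonads.

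Detection in the developmental columns was below that of the table as a whole, but not under every form of the rule. In larva 59 members stood at 1 RPKM or more, or 73.8%, against 81.2% of all genes, and in embryo 52 did, or 65%, against 79.1% of all genes. At 5 RPKM or more there were 36 members (45%) in larva, against 58.9% of all genes, and 30 (37.5%) in embryo, against 61.2%. Of the 265 genes chosen with testis alone as gonad, more than of all genes were detected, with 88.3% in larva and 87.9% in embryo at 1 RPKM or more and 67.2% and 68.3% at 5 or more. With a pseudocount of 5 in the gonad criterion, 85.4% of 41 genes were at 1 RPKM or more in larva. Both developmental columns were under 1 RPKM for 12 members (15%), against 11.3% of all genes. Larva was listed at 0 for 3 members and embryo for 6, against 486 and 612 of all 15446 genes. Many genes of the whole table are themselves scarcely expressed in adult soma, so a set of like adult evenness was used as well.

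This set holds the 3210 other genes that were even over the 4 somatic columns, at 4.1 RPKM or more in the lowest, but not low in both gonads. It was not matched in level, with a median lowest somatic value of 11.2 RPKM against 38.6 RPKM in the members. A fall of a given size on the log2(RPKM + 1) scale is harder to reach from a lower level, and the part this plays was not tested. Larva was lower than the lowest somatic value by at least 2 on the log2(RPKM + 1) scale for 50 members (62.5%), against 51 (1.59%) of those even genes and 1.83% of all genes. Embryo was lower by that measure for 58 members (72.5%), against 34 (1.06%) of the even genes and 1.82% of all genes. Most genes of the whole table stood too low in soma to fall by that much, at a median lowest somatic value of 0.7 RPKM. The shares of all genes are therefore not a like background here. The median difference from the lowest somatic value was -2.53 in larva and -2.81 in embryo for the members, whereas the even genes stood above it, by 1.31 in larva and 1.76 in embryo. At the median, even genes that were not low in gonads thus had more RNA in larva and embryo than in their lowest adult tissue, and the members had less. The 118 uneven gonad-low genes were lower by at least 2 more often than the members, 92 (78.0%) in larva and 91 (77.1%) in embryo. Fewer of them stood at 5 RPKM or more, with 16.1% in larva and 21.2% in embryo, against 45% and 37.5% of the members. Low levels in larva and embryo were thus not particular to the even genes among those low in both gonads. Ovary correlated with larva (rho 0.77) and with embryo (rho 0.78) across all genes, so choosing genes low in ovary also favours low values in these columns, and the size of that part was not tested.

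**Figure D3:**
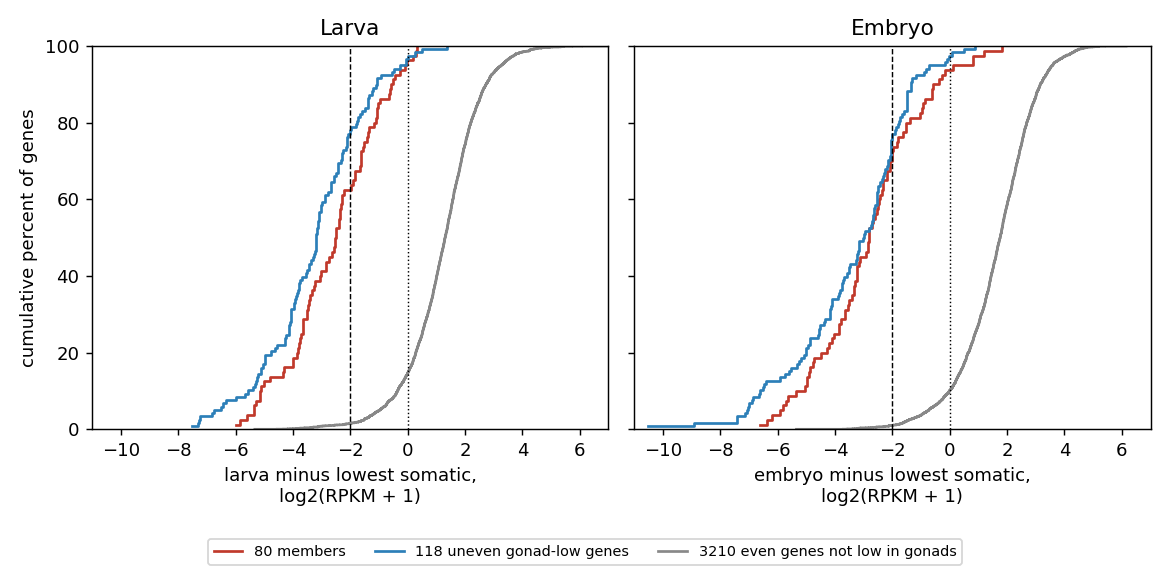
Cumulative percent of genes (y axis) by the log2(RPKM + 1) difference of larva (left panel) or embryo (right panel) from the lowest adult somatic value (x axis), with a dashed line at a difference of -2 and a dotted line at 0. The 80 members (red) and the 118 uneven gonad-low genes (blue) lie mostly left of the dashed line, and the 3210 even genes not low in gonads (grey) lie mostly right of the dotted line.

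The rule opens a gap between gonad and soma in every member, and many members lay within that gap in the developmental columns. For 13395 of all 15446 genes the lowest somatic value was below the higher gonad value. Such genes have no gap of this kind, so the counts between gonad and soma are a description without a background. Larva was at or under the higher gonad value for 33 members, between gonad and soma for 44, and at or above the lowest somatic value for 3. Embryo was at or under the higher gonad value for 38, between for 37, and at or above the lowest somatic value for 5. Over all genes, 50.7% stood at or under the higher gonad value in larva and 45.2% in embryo, near the members' 41.3% and 47.5%. The rule holds down the gonad value of the members only, so these shares are not a like background either. Of all genes 91.0% reached their lowest somatic value in larva and 91.8% in embryo. That value was listed at 0 for 4636 of all genes and had a median of 0.7 RPKM, so reaching it takes little. Of the 3210 even genes not low in gonads, 85.4% reached it in larva and 89.9% in embryo. In both stages together, 40 members lay at least 2 below the lowest somatic value on the log2 scale, 10 did so only in larva, 18 only in embryo and 12 in neither. This split has no share of all genes beside it and is a description only.

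In larva 3 members reached their lowest adult somatic level. ASG02781 stood at 229 RPKM in larva and 6 in embryo, with 185.4 RPKM in intestine, 422.2 in muscle and 377.6 in each carcass, against 1.8 in testis and 21.5 in ovary. ASG04865 stood at 10.5 RPKM in larva and 1 in embryo, with 24.2 RPKM in intestine, 8.1 in muscle, 11.5 in male and 25.9 in female carcass, against 0.9 in ovary and a listed 0 in testis. The third was ASG04036, named after its values were seen, at 37.3 RPKM in larva and 21.2 in embryo against 32.8 RPKM in male carcass, its lowest somatic column. In none of these did larva exceed the highest somatic value. Larva-led genes of the table (170 genes at 50 RPKM or more in larva and at most 1/5 of that elsewhere) had a median ovary value of 9.78% of the larva value. The quartiles of that share were 8.40% and 11.4%, and the median testis value was 0.318% of the larva value. The ovary value of ASG02781 was close to that ovary share of its larva value. Whether larval RNA bears on this or any other ovary value, and so on the choice of genes by ovary, was not tested.

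In embryo 5 members reached that level. ASG06042 stood at 1.7 RPKM in larva and 46.9 in embryo, with 17 RPKM in intestine, 14.7 in muscle, 16 in male and 12.5 in female carcass, against 0.2 in testis and 0.5 in ovary. ASG09972 stood at 10.3 RPKM in larva and 65.9 in embryo, with 28.3 RPKM in intestine, 33.6 in muscle, 41 in male and 55.1 in female carcass, against 2.1 in testis and 6.1 in ovary. For these 2 genes embryo, which stands for 1 to 4 cells by the labels, was the highest of the 8 columns. The other 3 that reached the lowest somatic value in embryo were ASG02297 (223.1 RPKM in embryo, lowest somatic 128.2), ASG14989 (142.3 in embryo, lowest somatic 130.5) and ASG11109 (15.8 in embryo, lowest somatic 8.6), the last 2 named after their values were seen. Larva exceeded the higher gonad value by at least 2 on the log2 scale for 13 members (16.3%), against 9.05% of all genes, and embryo did so for 10 (12.5%), against 8.55%. The rule holds down the gonad value of the members, whose median higher gonad value was 2.25 RPKM against 11.5 RPKM over all genes. These shares of all genes are therefore not a like background, and nothing is read from the excess.

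At the opposite end, other members were scarce in a developmental column. ASG09682 and ASG00969 had the lowest larva values relative to soma on the log2(RPKM + 1) scale. By percentage of the lowest somatic value, the 3 members listed at 0 in larva were lower still. ASG00969 stood at 1.3 RPKM in larva and 9.5 in embryo, with 466.8 RPKM in intestine, 129.7 in muscle, 211.4 in male and 165.6 in female carcass, against 13.7 in testis and 6.2 in ovary. For this gene larva was below both gonads. ASG11771 and ASG14514 had the lowest embryo values relative to soma on that scale. ASG11771 stood at 9.5 RPKM in larva and 0.4 in embryo, with 137.2 RPKM in intestine, 166 in muscle, 163.1 in male and 216 in female carcass, against 0.8 in testis and 2.3 in ovary. ASG14514 stood at 6.6 RPKM in larva and 0.3 in embryo, with 105.6 RPKM in intestine, 177.1 in muscle, 250 in male and 230.3 in female carcass, against 2.2 in testis and 1 in ovary. Both were thus higher in larva than in embryo while far below every adult somatic column.

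Larva and embryo were compared with each other within the set. Larva was higher by at least 2 on the log2(RPKM + 1) scale for 12 members (15%), against 8.81% of all genes, and lower for 12 (15%), against 11.7%. The median difference of larva minus embryo was 0.07 in the members and -0.25 over all genes. The 2 directions were thus equally common, and single genes differed widely, from -4.15 to 5.04. Scaling the columns by the median of ratios moved the median of all genes to 0.10. Under that scaling 139 genes met the rule, of which 18 were higher in larva and 8 lower, or 69.2% of the called genes on the larva side, against 12 and 12 (50%) as deposited. Over all genes that share moved alike, to 61.7% under this scaling against 42.9% as deposited. The median of the chosen genes also changed sign with the rule, to -0.25 at 2 times the gonads, -0.21 with testis alone and -0.05 with ovary alone.

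The 2 largest differences toward larva were those of ASG02781 (log2 difference 5.04) and ASG04992 (4.86). ASG04992 stood at 36.8 RPKM in larva and 0.3 in embryo, with 95.2 RPKM in intestine, 243.7 in muscle, 283 in male and 246.7 in female carcass, against 1.5 in testis and 4.8 in ovary. Intestine was the lowest somatic column of both genes. Toward embryo the largest were ASG06042 (-4.15) and ASG02297 (-3.07). ASG02297 stood at 25.6 RPKM in larva and 223.1 in embryo, with 550.7 RPKM in intestine, 360.4 in muscle, 209.8 in male and 128.2 in female carcass, against 14.9 in testis and 27.2 in ovary. The 2 most abundant members also parted here. ASG05221 stood at 487.9 RPKM in larva and 118.7 in embryo, and ASG15008 at 131.9 in larva and 788.1 in embryo.

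**Figure D4:**
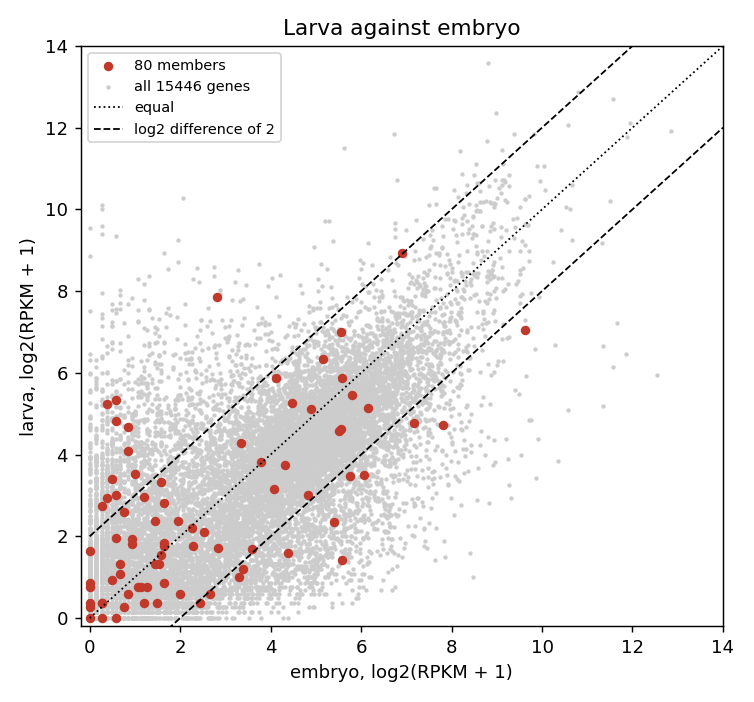
Larva (y axis) against embryo (x axis), both as log2(RPKM + 1), for the 80 members (red) and all 15446 genes (grey), with dashed lines at a difference of 2 in either direction. The members spread over both sides of the dotted line of equality, with 12 on or beyond each dashed line and many near the origin.

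The set could be divided by its developmental levels. At 5 RPKM or more, 22 members (27.5%) were present in both larva and embryo, 14 (17.5%) in larva only, 8 (10%) in embryo only and 36 (45%) in neither. The shares of all genes were 49.4% in both, 9.54% in larva only, 11.8% in embryo only and 29.3% in neither. The groups differed in adult level. The 22 present in both had a median lowest somatic value of 181 RPKM and a median higher gonad value of 27.9 RPKM, and the 36 present in neither had medians of 12.9 and 0.7 RPKM. The 14 larva-only members had medians of 50.05 RPKM in soma and 2.25 in the higher gonad, and the 8 embryo-only members had 56.6 and 6.05 RPKM. Presence at a fixed level went with abundance. The median percentage of the adult level was lower at higher adult levels in larva and followed no single order in embryo. Members at 100 RPKM or more in their lowest somatic column stood at a median of 9.38% of it in larva and 12.3% in embryo. The 46 members between these limits, at 10 to under 100 RPKM, stood at 11.1% in larva and 6.34% in embryo. Members under 10 RPKM stood at 15.2% in larva and 12.7% in embryo, from medians of 0.75 and 0.95 RPKM. Among the 3210 even genes not low in gonads, 96.0% were at 5 RPKM or more in both stages.

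Over the members, the lowest somatic value had a Spearman's rho of 0.61 with larva (0.63 over all genes) and 0.52 with embryo (0.66 over all genes). The higher gonad value had a rho of 0.68 with larva (0.57 over all genes) and 0.65 with embryo (0.61 over all genes). Between larva and embryo rho was 0.55 in the members and 0.70 over all genes. These coefficients are across genes of the same few libraries, which are not independent replicates, and the narrow choice of genes bears on them too. Among the 26 members at 10 RPKM or more in larva, ovary stood at a median of 35.1% of the larva value, ranging from 5.28% to 310%.

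The order of the 4 somatic columns as deposited is a description only, since the rule used these columns and limits their range. No share of all genes stands beside the counts of highest and lowest column. Intestine was the highest of the 4 somatic columns for 22 members, female carcass for 22, muscle for 18 and male carcass for 18, a tie of ASG00531 between the carcasses being counted as male. This split depended on the scaling. Over the genes chosen after scaling by the median of ratios, intestine was highest for 37.4%, muscle for 38.1%, male carcass for 15.8% and female carcass for 8.63%, and after scaling to an equal sum intestine was highest for 41.1%. As deposited, intestine was the lowest for 28, muscle for 22, male carcass for 18 and female carcass for 12. Intestine stood above all 3 body-wall columns for 22 members, below all 3 for 28 and within their range for 30. Highest over lowest had a median of 2.60, was under 2 for 23 members and was 4 or more for 12. The most even were ASG00531, from 9.2 RPKM in intestine and 10.5 in muscle to 11.5 in each carcass, and ASG01391, at 331.2 RPKM in intestine, 371.3 in muscle, 284.4 in male and 354.4 in female carcass. ASG00531 was listed at 0 in both gonads and in embryo and stood at 0.7 RPKM in larva. ASG01391 stood at 13.3 RPKM in testis, 60.8 in ovary, 7 in larva and 27.4 in embryo.

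**Figure D5:**
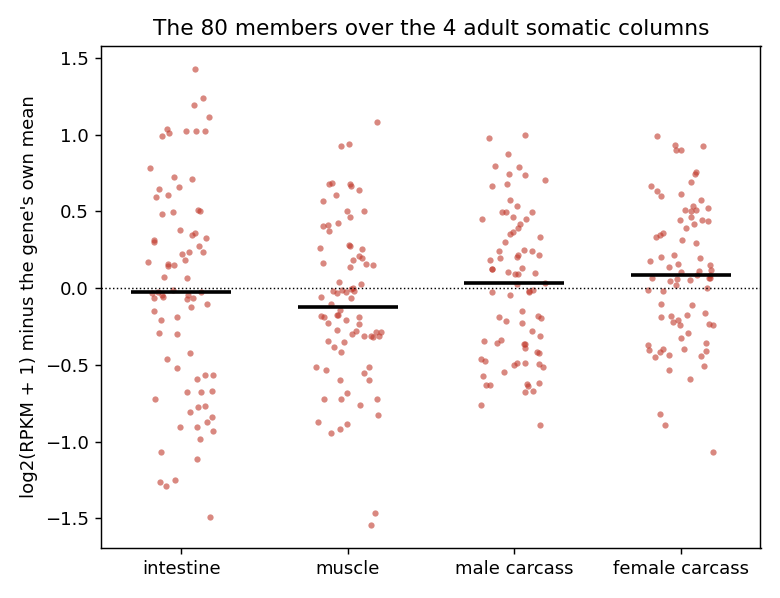
For each of the 80 members (points, spread sideways for visibility), the log2(RPKM + 1) value in a somatic column minus the gene's own mean over the 4 columns (y axis). Black bars are medians, at -0.02 in intestine, -0.12 in muscle, 0.03 in male and 0.09 in female carcass, and the points of intestine spread more widely than those of the carcasses.

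Gut and muscle differed at few members because the rule limits their range. Intestine was higher than muscle by at least 2 on the log2(RPKM + 1) scale for 3 members, against 8.88% of all genes, and lower for 2, against 12.5%, and nothing is read from these counts. ASG06783 had 201.7 RPKM in intestine and 41.4 in muscle, with 158.4 in male and 169.1 in female carcass. ASG09603 had 170.9 RPKM in intestine and 40 in muscle, with 71.1 in male and 53.9 in female carcass, and its 39.7 RPKM in larva was next to its muscle level. The third was ASG13302, at 78.7 RPKM in intestine and 18.5 in muscle, named after its values were seen. On the muscle side were ASG07700, at 96 RPKM in intestine and 440.6 in muscle, with 387.1 in male and 175.6 in female carcass, and ASG04088, at 229.1 RPKM in intestine and 929.2 in muscle, with 351.6 in male and 488.6 in female carcass. ASG07700 was listed at 0 in testis and stood at 1.7 RPKM in ovary, 1.5 in larva and 0.6 in embryo.

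Male and female carcass were compared within the limit that the rule sets. No member differed between them by 2 or more on the log2(RPKM + 1) scale, against 3.59% of all genes higher in male and 2.4% lower in male, and the evenness limit leaves little room for such a difference. The absolute difference was 1 or more for 14 members (17.5%), against 23.1% of all genes and 8.66% of the 3210 even genes not low in gonads. Among the 75 members at 10 RPKM or more in either carcass its median was 0.49, against 0.59 for all such genes. ASG08835 (37.6 RPKM in male carcass, 13 in female carcass, log2 difference 1.46) and ASG14436 (57.1 and 20.4 RPKM, 1.44) were the highest on the male side. For ASG14436 male carcass also stood above intestine (25.2 RPKM) and muscle (20.8 RPKM). ASG01513 (76 RPKM in male and 225.6 in female carcass, -1.56) and ASG10161 (12.1 and 37 RPKM, -1.54) led the female side. In both of these, muscle was nearer to female carcass, at 180.1 and 30.7 RPKM, and intestine nearer to male carcass, at 62.5 and 9.9 RPKM.

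Members tended to have neighbouring identifier numbers, a property the rule did not use. There were 5 pairs with consecutive numbers, so that 10 of the 160 numbers directly beside a member (6.25%) belonged to another member, against 0.518% of all genes. Within 5 numbers, 17 members (21.3%) had another member, against 4.76% of all genes with a member that near. The sources used here do not say what order the identifiers follow. Neighbouring numbers shared expression in general, since 51.6% of the numbers beside an even somatic gene belonged to another such gene, against 37.3% of all genes, and 12.1% of those beside any of the 198 gonad-low genes belonged to another, against 1.28%.

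The pairs, named after their values were seen, differed in how alike their members were. ASG13167 and ASG13168 were low and similar, at 9.8 and 17.9 RPKM in intestine, 6 and 15.6 in muscle, 5.1 and 9.1 in male carcass and 11.4 and 20.6 in female carcass, with 1.9 and 4.2 in larva and 2 and 2.9 in embryo. In both, male carcass was the lowest and female carcass the highest somatic column. ASG15008 and ASG15009 both had their highest somatic value in female carcass and their lowest in intestine. ASG15009 stood lower throughout, at 177.3 RPKM in intestine, 281.8 in muscle, 406.9 in male and 506.5 in female carcass, against 12.9 in testis and 28.8 in ovary, with 12.3 in larva and 18.9 in embryo. ASG15008 stood far higher in embryo than in larva, and ASG15009 did so much less. ASG01340 stood at 252.5 RPKM or more in every somatic column, whereas ASG01341 ranged from 25.1 to 53.3 RPKM. ASG06866 ranged from 5.6 RPKM in female carcass to 14.9 in muscle, and ASG06867 from 66.2 in muscle to 93.5 in male carcass. ASG14436 and ASG14437 had male carcass at 57.1 and 46.7 RPKM and intestine at 25.2 and 57.2 RPKM. Whether reads are shared between the members of a pair cannot be told from these values.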

How the data were processed

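The authors deposited RPKM values, per the name they gave the table, for 15446 genes in 8 columns, rounded to 1 decimal. The submitters' processing notes list the tools TopHat and Cufflinks, without versions. The genome build, annotation and gene lengths behind the values are not given in the sources used for this report. A single embryo column stands for 3 libraries, and how they were combined is not stated. Columns were matched to samples by title, and 0 columns came from outside the series. Read depth could not be recovered from these length-scaled, rounded values, so no interval or detection limit is given. A value of 0 means listed at 0.

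With 1 library per tissue there were no tests. Differences were taken on the log2(RPKM + 1) scale, which understates the change of low genes, and counted at 2 or more. Shares or counts of all genes stand beside the counts of differences and of detection, save where the text says that none does. The members and comparisons were chosen with earlier results of these data known. Named genes were the 2 at each end of each measure (level, evenness, gap to gonads, larva minus embryo, intestine minus muscle, male minus female carcass, larva and embryo minus lowest somatic) and the 2 nearest each side of both thresholds. Other names are marked as chosen after their values were seen. The counting was tested on simulated data. Alternatives were pseudocounts, thresholds, 3 column scalings, each somatic column left out, each gonad alone and a minimum level. The work was done in Python 3.11.15 with pandas 2.3.3.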

Additional observations from a re-analysis of the deposited data

How the results depend on the processing

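With 1 library per tissue no difference could be set against a replicate spread, depth is unknown, and values of a few RPKM are the least certain. Across 20 alternative settings, 264 values were recomputed for 16 quantities. Of these, 209 stayed close to the value as deposited (counts within 1.5 times, percentages within its exact 95% binomial interval over the members, the median within 0.59, the median carcass difference), and 55 did not. Those 55 follow, as percentages of the genes that met the altered rule. The binomial interval treats the members as independent of each other and holds no spread between libraries. It is also wide. The share higher in larva than embryo, 15% as deposited, counted as close at both 9.01% (2 times the gonads) and 23.3% (8 times). A value that counted as close was therefore not shown to be stable. The median larva minus embryo of 0.07 is too near 0 to hold a direction, and it was -0.25 at 2 times the gonads, -0.21 with testis alone, -0.05 with ovary alone, -0.03 with scaling by the upper quartile and -0.02 at a minimum of 10 RPKM. The altered rules let in more or fewer genes, and the causes were not tested further.

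With a pseudocount of 0.1 in the gonad criterion 141 genes qualified, 32.6% at 5 RPKM or more in larva, 14.9% and 18.4% reaching the lowest somatic value in larva and in embryo, and 35.5% at or under the higher gonad in embryo. With a pseudocount of 5 there were 41 genes, 85.4% at 1 RPKM or more and 58.5% at 5 or more in larva, and 53.7% at 5 or more in embryo. At 2 times the gonads there were 222 genes, with 16.7% in larva and 23.9% in embryo reaching the lowest somatic value, and in embryo 79.3% at 1 RPKM or more, 54.1% at 5 or more and 35.6% at or under the higher gonad. At 8 times there were 30 genes with a median larva minus embryo of 0.86, 26.7% at or under the higher gonad in larva, and 53.3% at 1 RPKM or more and 26.7% at 5 or more in embryo. Without the evenness limit there were 198 genes, 27.8% at 5 RPKM or more in larva and 53.5% at or under the higher gonad there, with 52.0% highest in intestine, 12.1% in muscle and 17.2% in female carcass.

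Scaling to an equal sum put 41.1% highest in intestine and 17.8% in female carcass. Scaling by the median of ratios gave 139 genes, 73 of them among the 80, with 5.76% lower in larva than embryo, 1.44% reaching the lowest somatic value and 59.0% at or under the higher gonad in embryo, and 38.1% highest in muscle and 8.63% in female carcass. Without intestine in the rule there were 733 genes, 49.9% highest in muscle. Without muscle there were 196, 52.0% highest in intestine. Without female carcass 41.2% were highest in intestine and 35.3% in male carcass. With testis as the only gonad there were 265 genes. In larva 88.3% of them were at 1 RPKM or more, 67.2% at 5 or more, 26.0% reached the lowest somatic value and 12.1% stood at or under testis. In embryo these shares were 87.9%, 68.3%, 34.3% and 11.3%. For larva against embryo over the 80 genes, a pseudocount of 0.1 gave 25% higher in larva, a pseudocount of 5 gave 6.25% higher and 7.50% lower, a log2 threshold of 1 gave 27.5% higher, and a threshold of 3 gave 7.50% higher and 3.75% lower.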

Other observations

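Most even somatic genes that were low in a gonad were low in testis alone. Of the 5759 genes with a highest somatic value under 5 times the lowest, 265 stood at 4 times testis or more and 99 at 4 times ovary or more, with 1 added to each value. Both held for the 80 genes described above, only the first for 185 and only the second for 19. Testis was lower than ovary for 70.8% of all genes and for 88.7% of the 3210 even genes not low in both gonads. Nothing particular to the genes low in a gonad is therefore read from this split.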
